A study of Mus musculus with 18 samples.

Results

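Collagens are triple helical proteins of the extracellular matrix, and each helix is wound from 3 chains that are encoded by genes named Col, a type number, the letter a and a chain number. Liver RNA was read on 1-colour Agilent arrays for every gene of this naming pattern, in the livers of 18 male C57BL/6 mice. The array carried 44 such collagen chain genes, among 21153 genes with a named probe. They comprised 11 fibrillar chains, 6 type IV chains of basement membranes, 3 chains of the basement membrane zone (types VII, XV and XVIII), 6 type VI chains, 9 fibril-associated chains (FACIT), 3 short chains, 4 transmembrane chains and 2 others. The members were taken by symbol.

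From 6 weeks of age the mice ate a low fat diet with 10% fat (LFD) or a high fat diet with 60% fat (HFD). After 10 weeks on either diet, the groups called LFD-MTX50 and HFD-MTX50 received 5 intraperitoneal rounds of the antifolate methotrexate at 50 mg/kg, and livers were taken 1 week after the last round. The untreated groups held 4 mice each and the treated groups 5 each, with 1 array per mouse. All groups shared the strain, the sex and the age at which the diets began, and whether untreated mice received a vehicle is not given in the sources used here. The comparisons address what the diet, and methotrexate on each diet, did to liver RNA.

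Fibrillar chains build the banded fibres of scar and stroma: Col1a1 and Col1a2 make up type I collagen, Col3a1 type III, and the type V chains sit inside type I fibres and limit their width. Type IV chains form the sheet-like network under epithelium and vessels, type VI chains form beaded filaments beside it, and FACIT chains decorate fibrils. In liver, fibrillar collagen comes mainly from activated stellate cells and portal fibroblasts, whereas Col18a1, whose C-terminal fragment is endostatin, is also made by hepatocytes.

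Values are log2 processed signal minus the array's 75th percentile, so a level of 0 is the 75th percentile of that array, and levels of different probes are not set against each other. A group difference is called at an adjusted p below 0.05 in a limma fit over all 35735 kept probes. On each array, 83.8 to 90.6% of all probes were well above background. All 8 hepatocyte markers, among them Alb, Ttr and Apoa1, lay well above background on all 18 arrays. The arrays lay on 6 slides, LFD alone on 1 and LFD-MTX50 alone on 2, so in the comparisons of LFD-MTX50 and HFD with LFD, slide and group cannot be told apart. The same limit holds for the difference between the methotrexate effects on the 2 diets, which takes in LFD-MTX50 against LFD. The HFD mice 3 and 4 and the HFD-MTX50 mice 1 and 2 shared 1 slide. HFD mouse 1 stood apart from the other HFD mice in several fibrillar chains, although it shared its slide with HFD mouse 2. For Col1a1, Col1a2, Col3a1 and Col5a1 the difference between HFD and LFD is given with and without it. For Col1a1 and Col1a2 so is that between HFD-MTX50 and HFD. That mouse was singled out after these values were seen, so leaving it out enlarges those differences by construction. The values without it are a description. No value of it stood far from its group by Dixon's criterion.

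Of the 44 chains, 30 lay well above background on all 18 arrays and 36 on at least the 4 arrays needed for a test. The 6 chains tested without being above background throughout were Col4a5 (17 arrays), Col8a1 (14), Col12a1 (13), Col6a6 (8), Col5a2 (7) and Col6a5 (6). Col4a5 was counted on 17 arrays because 1 spot, on HFD-MTX50 mouse 4, was an outlier and left without a value. The 8 untested chains lay well above background on at most 3 arrays: Col13a1 on 3, Col9a3, Col11a1, Col19a1, Col24a1 and Col26a1 on 1 each, and Col10a1 and Col28a1 on 0. Among the fibrillar chains 9 of 11 were tested, and among the type IV chains 6 of 6.

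Promoters are shown for 5 of the chains described at length below, the type I and III chains Col1a2 and Col3a1, Col5a3, Col27a1 and Col18a1, and for the divergently read pair Col4a5 and Col4a6. Each run is the 250 bases before the RefSeq start, 5′ to 3′ along the gene's strand in build GRCm38.p6, and capitals mark TATAAA, the motif CCAAT and the motif GGGCGG, each sought on both strands. None of these motifs lies inside another. RefSeq promoters were found for 35 of the 44 chains.
Col3a1, chr1:45311288-45311537, plus strand: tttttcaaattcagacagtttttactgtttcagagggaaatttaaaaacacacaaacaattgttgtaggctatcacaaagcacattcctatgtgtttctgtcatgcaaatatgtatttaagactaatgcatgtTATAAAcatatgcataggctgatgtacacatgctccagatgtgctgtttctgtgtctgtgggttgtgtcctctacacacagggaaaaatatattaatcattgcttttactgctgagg
Col27a1, chr4:63215162-63215411, plus strand: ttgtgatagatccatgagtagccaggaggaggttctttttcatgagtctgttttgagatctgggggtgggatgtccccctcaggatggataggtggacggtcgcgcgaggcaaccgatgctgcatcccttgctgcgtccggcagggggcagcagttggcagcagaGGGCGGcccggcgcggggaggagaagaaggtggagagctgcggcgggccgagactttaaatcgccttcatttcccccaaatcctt
Col1a2, chr6:4505368-4505617, plus strand: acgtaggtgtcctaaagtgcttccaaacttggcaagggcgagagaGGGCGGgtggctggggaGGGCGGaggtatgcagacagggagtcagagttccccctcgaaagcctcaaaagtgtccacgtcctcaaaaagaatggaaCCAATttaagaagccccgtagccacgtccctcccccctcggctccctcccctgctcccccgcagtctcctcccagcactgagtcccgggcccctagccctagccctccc
Col5a3, chr9:20815068-20815317, minus strand: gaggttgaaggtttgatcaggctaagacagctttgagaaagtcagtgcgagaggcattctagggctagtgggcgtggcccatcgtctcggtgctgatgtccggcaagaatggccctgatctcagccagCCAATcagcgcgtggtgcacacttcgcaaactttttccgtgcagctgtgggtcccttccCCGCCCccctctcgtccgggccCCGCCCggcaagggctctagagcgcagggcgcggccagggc
Col18a1 (upstream start), chr10:77166531-77166780, minus strand: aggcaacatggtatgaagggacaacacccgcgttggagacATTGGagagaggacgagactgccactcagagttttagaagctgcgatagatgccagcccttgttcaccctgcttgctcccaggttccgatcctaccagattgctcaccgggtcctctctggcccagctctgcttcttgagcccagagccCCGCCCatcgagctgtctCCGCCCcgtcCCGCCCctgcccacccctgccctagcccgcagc
Col18a1 (downstream start), chr10:77113706-77113955, minus strand: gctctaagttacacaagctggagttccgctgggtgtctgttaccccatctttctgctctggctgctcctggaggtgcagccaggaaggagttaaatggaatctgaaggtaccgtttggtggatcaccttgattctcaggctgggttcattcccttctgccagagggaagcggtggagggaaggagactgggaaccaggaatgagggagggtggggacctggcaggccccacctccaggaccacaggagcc
Col4a6, chrX:141474077-141474326, minus strand: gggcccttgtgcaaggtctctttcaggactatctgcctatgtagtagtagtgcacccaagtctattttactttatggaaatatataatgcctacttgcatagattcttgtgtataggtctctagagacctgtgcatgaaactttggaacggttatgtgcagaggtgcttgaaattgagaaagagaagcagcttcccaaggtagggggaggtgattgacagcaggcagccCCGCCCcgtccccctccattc
Col4a5, chrX:141475169-141475418, plus strand: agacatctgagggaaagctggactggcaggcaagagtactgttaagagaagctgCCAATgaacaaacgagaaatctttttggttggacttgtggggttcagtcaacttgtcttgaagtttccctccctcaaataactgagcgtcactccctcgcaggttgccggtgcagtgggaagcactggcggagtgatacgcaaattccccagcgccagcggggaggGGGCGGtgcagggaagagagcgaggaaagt

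A TATAAA match stood anywhere in 13.2% of the 38 promoters of those 35 chains (5 chains), against 12.4% of 32851 promoters of the same length. CCAAT was found in 34.2% of the 38 promoters (13 chains) and in 33.8% of all. GGGCGG, the core letters of a GC box, occurred in 57.9% of the 38 promoters of these chains and in 32.7% of all. In the runs above, Col3a1 held a TATAAA match and no GGGCGG, while Col5a3, Col1a2 and the upstream start of Col18a1 each held CCAAT and at least 2 GGGCGG. The starts of Col4a1 and Col4a2 lay 21 bases apart on opposite strands, and those of Col4a5 and Col4a6 lay 1343 bases apart.

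In HFD livers, 9 of the 36 tested chains were higher than in LFD livers and 1 was lower, which is 27.8% of the chains against 28.3% of all 19597 genes tested (18% higher, 10.4% lower). Higher chains were Col1a2, Col2a1, Col6a2, Col6a5, Col7a1, Col9a1, Col9a2, Col15a1 and Col22a1, and the lower one was Col18a1. Relative to HFD, HFD-MTX50 livers had 1 chain higher, Col18a1, and 4 lower, Col3a1, Col4a3, Col6a2 and Col27a1, or 13.9% of the chains against 11.0% of all genes (4.83% higher, 6.13% lower). Relative to LFD, LFD-MTX50 livers had 7 chains higher (Col6a2, Col6a5, Col8a2, Col11a2, Col20a1, Col22a1, Col25a1) and 5 lower (Col4a5, Col4a6, Col5a3, Col12a1, Col27a1), or 33.3% against 28.1% of all genes (17.6% higher, 10.5% lower). In each of the 3 comparisons the share of chains called was near the share of all genes. The groups did not overlap for 12 chains between HFD and LFD (33.3% against 40.3% of all genes), for 4 between HFD-MTX50 and HFD (11.1% against 11.4%) and for 16 between LFD-MTX50 and LFD (44.4% against 29.1%). In whole liver, fewer cells of a type and less RNA per cell cannot be told apart.

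The log2 difference between HFD and LFD, called or not, was above 0 for 31 of 36 chains and for 56.1% of all genes, with a median of 0.41 against 0.08 over all genes. Between HFD-MTX50 and HFD, which share the HFD mice with that comparison, it was below 0 for 33 of 36 chains and for 54.5% of all genes, with a median of -0.40 against -0.04 over all genes. With normexp background correction, which moved the median of all probes to 0.51 there, the chain median turned to 0.36, and 29 chains and 75.9% of all genes lay above 0. Between LFD-MTX50 and LFD, 24 chains and 60.1% of all genes lay above 0, with a chain median of 0.18 against 0.10, and quantile normalization split the chains 18 to 18. The share of probes well above background also differed between the groups, as given above, and its part in these chain medians was not tested. The LFD values of Col6a5 are below background. With them raised to the dimmest signal well above background, the chain medians against LFD were 0.40 for HFD and 0.15 for LFD-MTX50. With slide as a random block, the diet call held for Col6a2 only (the other 9 had adjusted p from 0.0513 to 0.190), all 5 calls between HFD-MTX50 and HFD held, and of the calls between LFD-MTX50 and LFD those of Col5a3 and Col27a1 held (the other 10 from 0.0962 to 0.255). That setting called 1.94, 9.48 and 1.73% of all genes in the same order of comparisons.

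**Figure D1:**
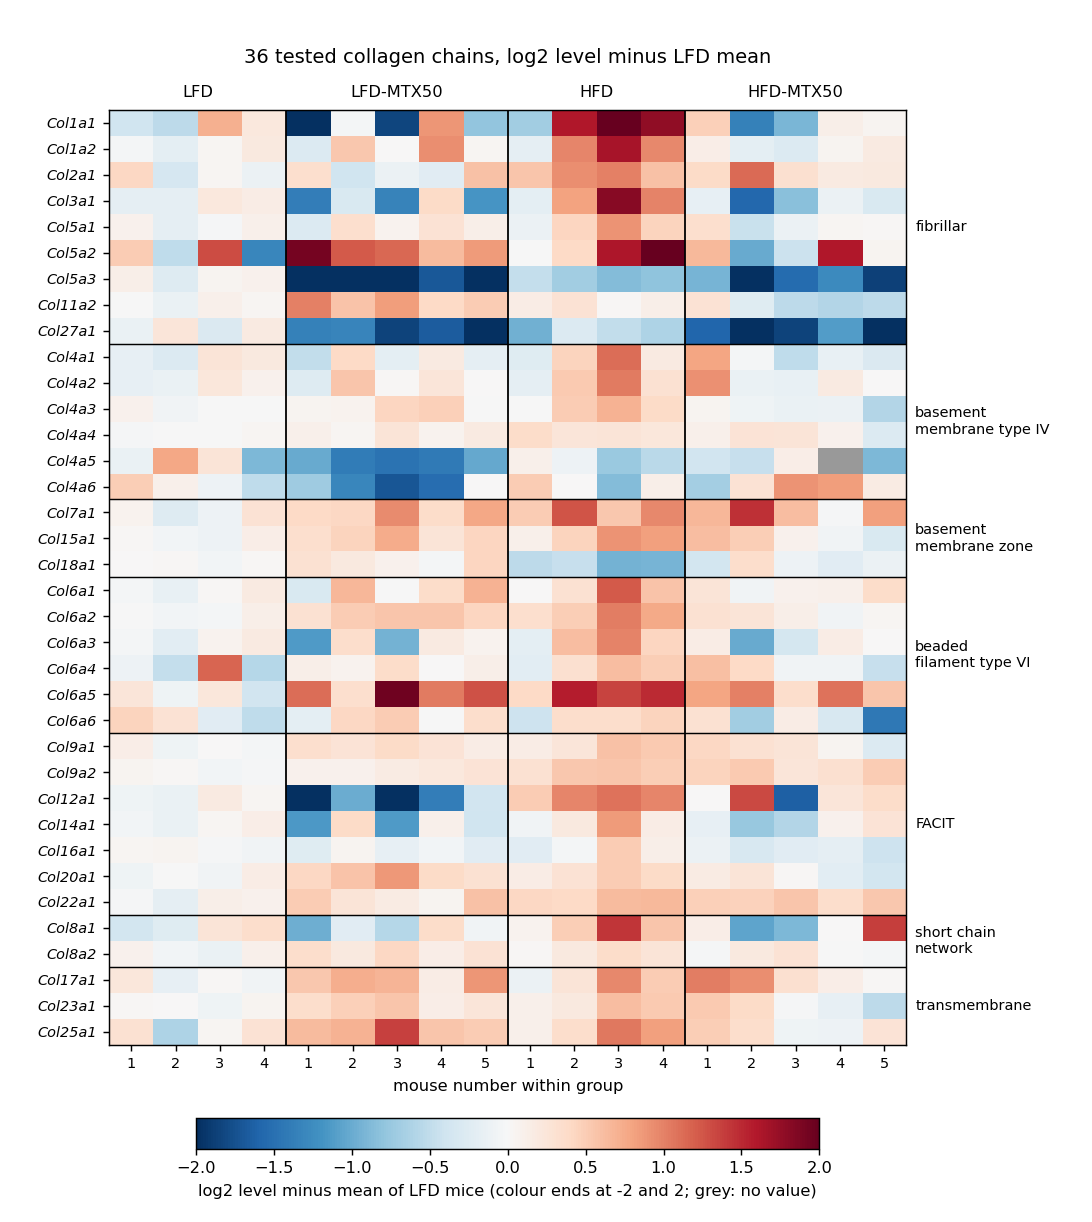
Levels of the 36 tested chains (rows, by class) in the 18 mice (columns, by group and mouse number), as the log2 level minus the mean of the 4 LFD mice. Col5a3 and Col27a1 are blue in every LFD-MTX50 and HFD-MTX50 mouse and a paler blue in every HFD mouse. Col1a1, Col1a2 and Col3a1 are red in HFD mice 2 to 4 and not in HFD mouse 1, and Col18a1 is bluest in the 4 HFD mice.

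Type I and type III collagen chains were highest in 3 of the 4 HFD livers. The level of Col1a1, the alpha 1 chain of type I collagen, was -2.24, -2.37, -1.13 and -1.64 in LFD mice 1 to 4, -4.02, -1.89, -3.68, -0.96 and -2.64 in LFD-MTX50 mice 1 to 5, -2.54, -0.24, 0.63 and -0.07 in HFD mice 1 to 4, and -1.37, -3.19, -2.76, -1.73 and -1.78 in HFD-MTX50 mice 1 to 5. HFD mice 2, 3 and 4 lay above every mouse of the other 3 groups, while HFD mouse 1 lay below every LFD mouse. The difference between HFD and LFD was 1.29 ± 0.68 (log2, SE) with an adjusted p of 0.156, and that between HFD-MTX50 and HFD was -1.61 ± 0.65 with an adjusted p of 0.103. Without HFD mouse 1 they were 1.95 and -2.27. LFD-MTX50 mice spread over a wider range than LFD mice, and their difference of -0.79 was not called (adjusted p = 0.359).

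Col1a2, the alpha 2 chain of type I collagen, had levels of -0.32, -0.48, -0.24 and -0.08 in LFD, -0.55, 0.26, -0.28, 0.65 and -0.25 in LFD-MTX50, -0.46, 0.70, 1.37 and 0.69 in HFD, and -0.14, -0.48, -0.55, -0.22 and -0.10 in HFD-MTX50. Again HFD mice 2 to 4 were the highest of all 18 mice and HFD mouse 1 lay among the LFD mice. Col1a2 was 1.81-fold higher in HFD than in LFD (0.86 ± 0.30, adjusted p = 0.0431), a call lost when any 1 of 8 mice was left out, with quantile normalization (0.86, adjusted p = 0.0589), with median scaling (0.76, adjusted p = 0.0615) and with slide as a random block (adjusted p = 0.172). It was 0.87 lower in HFD-MTX50 than in HFD with an adjusted p of 0.0562, and without HFD mouse 1 this difference was -1.22. The diet difference without that mouse was 1.20.

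Col3a1, the single chain of type III collagen, read -1.55, -1.54, -1.16 and -1.22 in LFD, -2.75, -1.67, -2.70, -0.99 and -2.54 in LFD-MTX50, -1.56, -0.57, 0.45 and -0.37 in HFD, and -1.53, -2.94, -2.20, -1.48 and -1.67 in HFD-MTX50. The mice ranked much as for Col1a1: HFD mice 2 to 4 were high, HFD mouse 1 was not, and LFD-MTX50 mice 1, 2, 3 and 5 lay below every LFD mouse. Col3a1 fell 2.74-fold from HFD to HFD-MTX50 (-1.45 ± 0.41, adjusted p = 0.0344). On the slide that held both groups the difference was -2.28, and with slide as a fixed block its adjusted p was 0.0323. Leaving out any of HFD mice 2 to 4, or HFD-MTX50 mouse 2, 3 or 5, ended the call (adjusted p up to 0.139). So did a fit of those 2 groups alone, which called 0% of all genes. Between HFD and LFD it differed by 0.85 ± 0.43 (adjusted p = 0.138), and by 1.20 without HFD mouse 1.

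**Figure D2:**
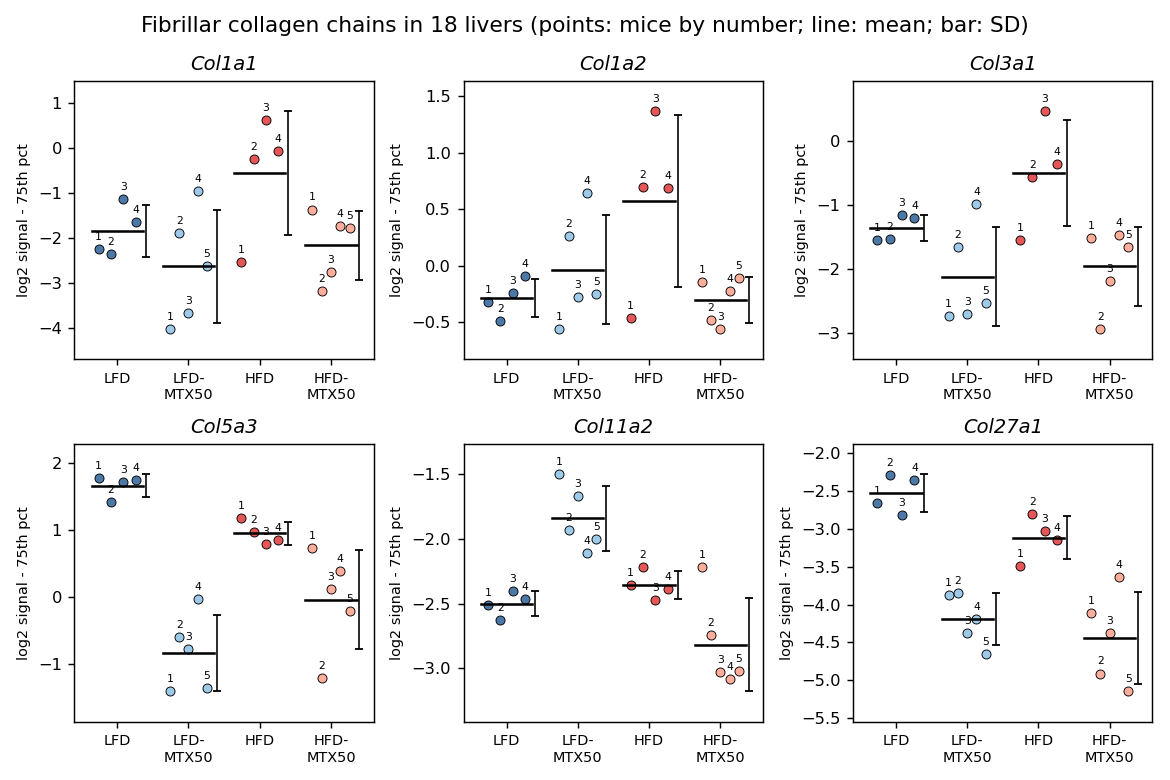
Log2 signal minus the array's 75th percentile for 6 fibrillar chains in every mouse (points, labelled with the mouse number), with the group mean (line) and SD (bar), for 4 or 5 mice a group. HFD mouse 1 sits apart from HFD mice 2 to 4 for Col1a1, Col1a2 and Col3a1, and the LFD-MTX50 mice lie below all LFD mice for Col5a3 and Col27a1.

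Col5a3 and Col27a1 fell most clearly under methotrexate on the low fat diet. Col5a3, a minor chain of type V collagen, had levels of 1.77, 1.41, 1.71 and 1.74 in LFD, -1.40, -0.60, -0.78, -0.03 and -1.36 in LFD-MTX50, 1.17, 0.96, 0.79 and 0.85 in HFD, and 0.72, -1.21, 0.11, 0.38 and -0.21 in HFD-MTX50. Each group of treated mice lay wholly below the untreated mice on the same diet, and HFD lay wholly below LFD. Over all genes, such non-overlap was seen for 29.1% between LFD-MTX50 and LFD, 11.4% between HFD-MTX50 and HFD, and 40.3% between HFD and LFD. Col5a3 was 5.63-fold lower in LFD-MTX50 than in LFD (-2.49 ± 0.32, adjusted p = 0.000413), and this call held under each of the 13 other settings run and without any 1 mouse. In HFD-MTX50 it was 0.98 lower than in HFD (adjusted p = 0.0545), and in HFD 0.71 lower than in LFD (adjusted p = 0.114). The fall under methotrexate was larger on the low fat diet by 1.51 ± 0.45 (adjusted p = 0.0231, and 0.0961 with slide as a random block).

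Col27a1, a fibrillar chain known from developing cartilage and other tissues, read -2.66, -2.29, -2.81 and -2.35 in LFD, -3.88, -3.84, -4.38, -4.19 and -4.65 in LFD-MTX50, -3.49, -2.80, -3.02 and -3.15 in HFD, and -4.11, -4.91, -4.38, -3.64 and -5.15 in HFD-MTX50. The treated mice lay below the untreated mice on both diets without overlap. It fell 3.17-fold in LFD-MTX50 (-1.66 ± 0.26, adjusted p = 0.00118) and 2.50-fold in HFD-MTX50 (-1.32 ± 0.26, adjusted p = 0.00924), and the effects on the 2 diets were not shown to differ (0.34 ± 0.37, adjusted p = 0.504). Both calls held under quantile normalization, median scaling, slide as a random block (adjusted p = 0.0394 and 0.0149) and without any 1 mouse. The HFD-MTX50 call was lost in a fit of the 2 groups alone, which called 0% of all genes. With normexp that difference turned to 0.50 (adjusted p = 0.633) and the LFD-MTX50 one shrank to -0.06 (adjusted p = 0.955). Normexp moved the medians of all probes in these comparisons to 0.51 and 0.66. The slide shared by HFD and HFD-MTX50 gave -1.43.

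Among the remaining fibrillar chains, Col11a2 and Col2a1 were called. Col11a2, an alpha chain of type XI collagen, had levels of -2.51, -2.63, -2.41 and -2.46 in LFD, -1.50, -1.93, -1.67, -2.11 and -2.0 in LFD-MTX50, -2.35, -2.22, -2.48 and -2.39 in HFD, and -2.22, -2.74, -3.03, -3.08 and -3.02 in HFD-MTX50. Every LFD-MTX50 mouse lay above every LFD mouse, while HFD-MTX50 mice 2 to 5 were below all HFD mice. It rose 1.58-fold in LFD-MTX50 (0.66 ± 0.16, adjusted p = 0.00934, and 0.101 with slide as a random block), whereas the difference on the high fat diet was -0.46 ± 0.16 (adjusted p = 0.0715), and the effects on the 2 diets differed by -1.12 ± 0.23 (adjusted p = 0.00614).

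Col2a1, the chain of cartilage type II collagen, read -4.08, -4.84, -4.46 and -4.62 in LFD, -4.17, -4.91, -4.62, -4.72 and -3.91 in LFD-MTX50, -3.95, -3.57, -3.49 and -3.92 in HFD, and -4.12, -3.37, -4.17, -4.33 and -4.31 in HFD-MTX50. All HFD mice lay above all LFD mice, by 0.77 ± 0.24 on average (adjusted p = 0.0264). Quantile normalization reduced this to 0.48 (adjusted p = 0.135). Col5a1, the main chain of type V collagen, read -3.61, -3.87, -3.71 and -3.59 in LFD, -3.97, -3.36, -3.62, -3.42 and -3.58 in LFD-MTX50, -3.81, -3.27, -2.79 and -3.26 in HFD, and -3.36, -4.14, -3.81, -3.66 and -3.67 in HFD-MTX50. HFD mice 2 to 4 were its highest and HFD mouse 1 lay among the LFD mice. Its diet difference of 0.41 ± 0.19 was not called (adjusted p = 0.111), and without HFD mouse 1 it was 0.59. Col5a2 was above background on 7 arrays only and was not called in any comparison.

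Among the 9 tested fibrillar chains as a class, all 9 differences between HFD-MTX50 and HFD lay below 0, from -1.61 to -0.33 with a median of -0.87. Between HFD and LFD 7 of 9 lay above 0, with a median of 0.77, and the exceptions were Col5a3 and Col27a1.

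Of the 6 type IV chains, Col4a3, Col4a5 and Col4a6 were called in at least 1 comparison. Col4a1 and Col4a2 together form the common network of basement membranes. Col4a1 read -2.14, -2.26, -1.73 and -1.79 in LFD, -2.48, -1.58, -2.18, -1.81 and -2.17 in LFD-MTX50, -2.22, -1.54, -0.86 and -1.80 in HFD, and -1.19, -2.01, -2.49, -2.12 and -2.26 in HFD-MTX50. Col4a2 read -2.57, -2.53, -2.17 and -2.31 in LFD, -2.66, -1.84, -2.37, -2.15 and -2.39 in LFD-MTX50, -2.58, -1.87, -1.36 and -2.09 in HFD, and -1.48, -2.53, -2.54, -2.21 and -2.39 in HFD-MTX50. For both chains HFD mouse 3 and HFD-MTX50 mouse 1 were the highest of the 18, and the groups overlapped in every comparison. None of their differences was called: between HFD and LFD they were 0.38 ± 0.29 for Col4a1 (adjusted p = 0.328) and 0.42 ± 0.25 for Col4a2 (adjusted p = 0.213).

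Col4a3 and Col4a4 belong to the network known from the kidney glomerulus. Col4a3 read -4.59, -4.76, -4.69 and -4.68 in LFD, -4.63, -4.61, -4.24, -4.21 and -4.68 in LFD-MTX50, -4.68, -4.18, -3.99 and -4.29 in HFD, and -4.62, -4.77, -4.82, -4.80 and -5.27 in HFD-MTX50. HFD mice 2 to 4 were above all HFD-MTX50 mice for Col4a3, unlike HFD mouse 1. Col4a3 was 1.49-fold lower in HFD-MTX50 than in HFD (-0.57 ± 0.15, adjusted p = 0.0278). With slide as a fixed block the adjusted p was 0.116. In a fit of the 2 groups alone, which called 0% of all genes, it was 0.0999. Normexp turned the difference to 0.99 (adjusted p = 0.397) and the median of all probes to 0.51. Col4a4 read -1.98, -1.95, -1.96 and -1.91 in LFD, -1.84, -1.91, -1.69, -1.88 and -1.77 in LFD-MTX50, -1.58, -1.71, -1.69 and -1.72 in HFD, and -1.85, -1.67, -1.70, -1.87 and -2.22 in HFD-MTX50. HFD and LFD-MTX50 mice all lay above the LFD mice by small margins, 0.28 ± 0.11 (adjusted p = 0.0593) and 0.13 ± 0.10 (adjusted p = 0.316). A second probe of Col4a4 was called in both comparisons, at 0.39 (adjusted p = 0.0148) and 0.51 (adjusted p = 0.00372).

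Col4a5 and Col4a6, the X-linked pair shown above, were both lower in LFD-MTX50 than in LFD on their brightest probes. Col4a5 read -0.20, 0.71, 0.20 and -0.97 in LFD, -1.07, -1.47, -1.55, -1.48 and -1.08 in LFD-MTX50, 0.03, -0.17, -0.81 and -0.60 in HFD, and -0.45, -0.52, 0.07 and -0.96 in HFD-MTX50 mice 1, 2, 3 and 5. Every LFD-MTX50 mouse lay below every LFD mouse, although LFD mouse 4 came close. The fall was 2.40-fold (-1.26 ± 0.28, adjusted p = 0.00676, and 0.0986 with slide as a random block). On the high fat diet the difference was -0.08 ± 0.30 (adjusted p = 0.881), and the effects on the 2 diets differed by 1.19 ± 0.41 (adjusted p = 0.0434).

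Col4a6 read 4.85, 4.46, 4.26 and 3.86 in LFD, 3.64, 3.05, 2.65, 2.83 and 4.36 in LFD-MTX50, 4.87, 4.36, 3.48 and 4.48 in HFD, and 3.68, 4.65, 5.25, 5.19 and 4.52 in HFD-MTX50. LFD-MTX50 mice 1 to 4 lay below the LFD mice and mouse 5 lay among them. This probe fell by 1.05 ± 0.37 (adjusted p = 0.0445, lost under 7 of 13 other settings), but a second Col4a6 probe, above background on 16 arrays, rose by 0.84 ± 0.18 in the same comparison (adjusted p = 0.00500). The 2 probes thus gave opposite directions for Col4a6.

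**Figure D3:**
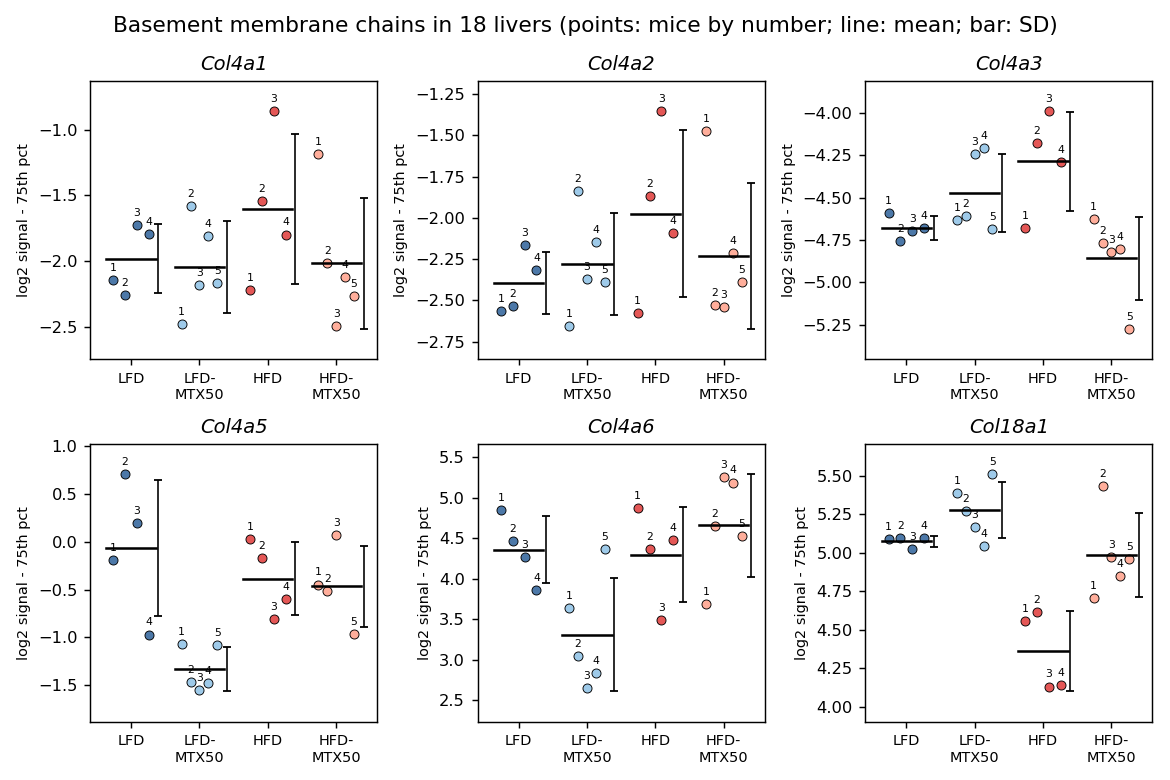
Log2 signal minus the array's 75th percentile for 5 type IV chains and Col18a1 in every mouse (points, labelled with the mouse number), with the group mean (line) and SD (bar), for 4 or 5 mice a group. Col18a1 is lowest in the 4 HFD mice, Col4a5 is lowest in the 5 LFD-MTX50 mice, and Col4a6 is drawn on its brightest probe, whose fall in LFD-MTX50 a second probe does not share.

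In the basement membrane zone, Col18a1 was lower in HFD and higher in HFD-MTX50, the only chain called in those directions in each comparison. It read 5.09, 5.09, 5.02 and 5.10 in LFD, 5.38, 5.27, 5.17, 5.04 and 5.51 in LFD-MTX50, 4.56, 4.62, 4.13 and 4.14 in HFD, and 4.71, 5.43, 4.97, 4.85 and 4.96 in HFD-MTX50. The 4 HFD mice lay below every other mouse, and LFD mice differed from each other by less than 0.1. Col18a1 was 1.64-fold lower in HFD than in LFD (-0.71 ± 0.15, adjusted p = 0.00595) and 1.54-fold higher in HFD-MTX50 than in HFD (0.62 ± 0.14, adjusted p = 0.0179). A second probe gave -0.67 (adjusted p = 0.00480) and 0.49 (adjusted p = 0.0264). Within the shared slide HFD-MTX50 exceeded HFD by 0.93, with an adjusted p of 0.0103 when slide was a fixed block. The diet call kept its direction with slide as a random block but had an adjusted p of 0.0562. The methotrexate call was lost without HFD mouse 3 or 4, and in a fit of HFD-MTX50 and HFD alone, which called 0% of all genes. In LFD-MTX50 the difference was 0.20 ± 0.14 (adjusted p = 0.299), and the effects on the 2 diets were not shown to differ on this probe (0.42 ± 0.20, adjusted p = 0.127), whereas on the second probe they differed by 0.53 ± 0.18 (adjusted p = 0.0382).

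Col7a1, which forms anchoring fibrils under epithelia, read -1.27, -1.60, -1.45 and -1.06 in LFD, -0.94, -0.93, -0.41, -0.99 and -0.58 in LFD-MTX50, -0.84, -0.08, -0.80 and -0.39 in HFD, and -0.68, 0.12, -0.73, -1.37 and -0.53 in HFD-MTX50. HFD mice lay above all LFD mice, by 0.82 ± 0.25 (adjusted p = 0.0249, and 0.172 with slide as a random block), and so did LFD-MTX50 mice, by 0.58 ± 0.24 (adjusted p = 0.0738). Col15a1, a vascular basement membrane chain related to Col18a1, read -3.65, -3.74, -3.77 and -3.55 in LFD, -3.35, -3.23, -2.93, -3.41 and -3.25 in LFD-MTX50, -3.58, -3.23, -2.77 and -2.86 in HFD, and -3.06, -3.19, -3.59, -3.74 and -3.99 in HFD-MTX50. It was 0.57 ± 0.20 higher in HFD than in LFD (adjusted p = 0.0421), with HFD mouse 1 among the LFD mice. Other Col15a1 probes gave -0.70 and -0.64, so that the mean over probes turned to -0.26 (adjusted p = 0.467).

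Type VI chains were led by Col6a2, the only chain called in all 3 comparisons. It read -3.24, -3.29, -3.27 and -3.12 in LFD, -2.93, -2.72, -2.68, -2.67 and -2.81 in LFD-MTX50, -2.89, -2.74, -2.21 and -2.48 in HFD, and -2.92, -2.97, -3.11, -3.31 and -3.20 in HFD-MTX50. HFD and LFD-MTX50 mice all lay above LFD, and HFD-MTX50 mice all lay below HFD. It was 0.65 ± 0.13 higher in HFD (adjusted p = 0.00473, and 0.0484 with slide as a random block), 0.47 ± 0.12 higher in LFD-MTX50 (adjusted p = 0.0132) and 0.52 lower in HFD-MTX50 than in HFD (adjusted p = 0.0195). The last call was lost in a fit of HFD-MTX50 and HFD alone, which called 0% of all genes. The difference was -0.60 on the shared slide and turned to 0.53 with normexp (adjusted p = 0.459). In that comparison normexp moved the median of all probes to 0.51. Quantile normalization reduced the LFD-MTX50 difference to 0.27 (adjusted p = 0.0726).

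Col6a5, a long type VI chain, was dim: it lay well above background on 0 of 4 LFD, 1 of 5 LFD-MTX50, 3 of 4 HFD and 2 of 5 HFD-MTX50 arrays. Its levels were -7.41, -7.75, -7.42 and -8.04 in LFD, -6.54, -7.32, -5.71, -6.62 and -6.38 in LFD-MTX50, -7.26, -6.08, -6.31 and -6.16 in HFD, and -6.86, -6.65, -7.31, -6.57 and -7.09 in HFD-MTX50. All LFD values lay below those of HFD and LFD-MTX50. With LFD values raised to the dimmest signal well above background on their arrays, Col6a5 was 1.08-fold higher in HFD and 1.03-fold higher in LFD-MTX50. These are not lower bounds, because HFD and LFD-MTX50 values below background entered them as read. The calls (adjusted p = 0.0106 and 0.0101) belong to the fitted differences of 1.20 and 1.14, which also rest on values below background. Col6a1, Col6a3, Col6a4 and Col6a6 were not called. Across the class the difference between HFD and LFD lay above 0 for 6 of 6 chains, from 0.18 to 0.65 in the 5 chains other than Col6a5, and that between HFD-MTX50 and HFD lay below 0 for all 6.

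Of the 7 tested FACIT chains, Col9a1, Col9a2, Col12a1, Col20a1 and Col22a1 were called in at least 1 comparison. Col9a2, a chain of type IX collagen, read 0.80, 0.76, 0.69 and 0.73 in LFD, 0.83, 0.83, 0.91, 0.95 and 1.03 in LFD-MTX50, 1.06, 1.29, 1.30 and 1.23 in HFD, and 1.20, 1.27, 0.99, 1.07 and 1.25 in HFD-MTX50. HFD lay above LFD in every mouse, by 0.47 ± 0.09 (adjusted p = 0.00398, and 0.0513 with slide as a random block), and HFD-MTX50 differed from HFD by -0.06 (adjusted p = 0.641). Its partner Col9a1 read -1.52, -1.75, -1.65 and -1.70 in LFD, -1.31, -1.38, -1.28, -1.39 and -1.50 in LFD-MTX50, -1.51, -1.41, -1.07 and -1.13 in HFD, and -1.23, -1.34, -1.39, -1.60 and -1.92 in HFD-MTX50. HFD exceeded LFD by 0.37 ± 0.14 (adjusted p = 0.0494), and median scaling ended that call (adjusted p = 0.0942), as did leaving out any of 14 mice. A second Col9a1 probe gave 0.80 in that comparison (adjusted p = 0.0154) and 0.58 in LFD-MTX50 relative to LFD (adjusted p = 0.0448).

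Col12a1, which binds the surface of type I fibrils, read -5.80, -5.85, -5.54 and -5.68 in LFD, -8.71, -6.71, -8.17, -7.10 and -6.10 in LFD-MTX50, -5.20, -4.75, -4.63 and -4.74 in HFD, and -5.70, -4.40, -7.35, -5.47 and -5.35 in HFD-MTX50. All LFD-MTX50 mice lay below all LFD mice, and only 1 of the 5 LFD-MTX50 arrays measured it well above background. The difference was -1.64 ± 0.51 (adjusted p = 0.0250), with an adjusted p of 0.2 for slide as a random block. With normexp it was 1.31 (adjusted p = 0.234), where the median of all probes moved to 0.66. Between HFD and LFD the Col12a1 difference was 0.89 ± 0.53 (adjusted p = 0.209), also without overlap.

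Col20a1 and Col22a1 are minor FACIT chains, the latter known from tissue junctions. Col20a1 read -2.17, -2.10, -2.16 and -1.95 in LFD, -1.68, -1.52, -1.23, -1.72 and -1.78 in LFD-MTX50, -1.95, -1.80, -1.58 and -1.72 in HFD, and -1.93, -1.84, -2.08, -2.31 and -2.45 in HFD-MTX50. It rose by 0.51 ± 0.14 in LFD-MTX50 without overlap (adjusted p = 0.0145), while a second probe gave -0.08 (adjusted p = 0.833). Col22a1 read -3.28, -3.45, -3.14 and -3.18 in LFD, -2.75, -3.01, -3.1, -3.22 and -2.68 in LFD-MTX50, -2.84, -2.86, -2.64 and -2.62 in HFD, and -2.79, -2.80, -2.71, -2.92 and -2.72 in HFD-MTX50. All HFD mice lay above LFD, by 0.52 ± 0.12 (adjusted p = 0.00774, and 0.0668 with slide as a random block), and the LFD-MTX50 rise of 0.31 ± 0.11 (adjusted p = 0.0492) was lost under 10 of 13 other settings. Col14a1 and Col16a1 were not called.

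Among short and transmembrane chains, Col8a2 and Col25a1 were called. Col8a2, a chain of the type VIII network of vessels and cornea, read -0.71, -0.85, -0.92 and -0.70 in LFD, -0.44, -0.59, -0.37, -0.65 and -0.51 in LFD-MTX50, -0.77, -0.59, -0.43 and -0.53 in HFD, and -0.81, -0.60, -0.51, -0.79 and -0.83 in HFD-MTX50. LFD-MTX50 exceeded LFD by 0.28 ± 0.10 (adjusted p = 0.0431), and by 0.18 with median scaling (adjusted p = 0.146). A second Col8a2 probe, above background on 15 arrays, gave 0.38 ± 0.35 (adjusted p = 0.421). Col25a1, a membrane collagen best known from neurons, read -3.85, -4.76, -4.11 and -3.86 in LFD, -3.52, -3.45, -2.77, -3.59 and -3.63 in LFD-MTX50, -4.04, -3.79, -3.09 and -3.33 in HFD, and -3.66, -3.79, -4.24, -4.24 and -3.87 in HFD-MTX50. All LFD-MTX50 mice lay above all LFD mice, by 0.75 ± 0.23 (adjusted p = 0.0257), and its other probes gave 0.73 (adjusted p = 0.00810) and 0.69 (adjusted p = 0.0453). Quantile normalization left 0.50 (adjusted p = 0.0851), and slide as a random block gave an adjusted p of 0.167.

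The 15 tested chains called in no comparison ranged from 0.09 to 1.29 between HFD and LFD, from -1.61 to 0.09 between HFD-MTX50 and HFD, and from -0.79 to 1.15 between LFD-MTX50 and LFD. For Col4a4, Col14a1, Col16a1 and Col23a1 among them, a dimmer probe was called in at least 1 contrast.

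**Figure D4:**
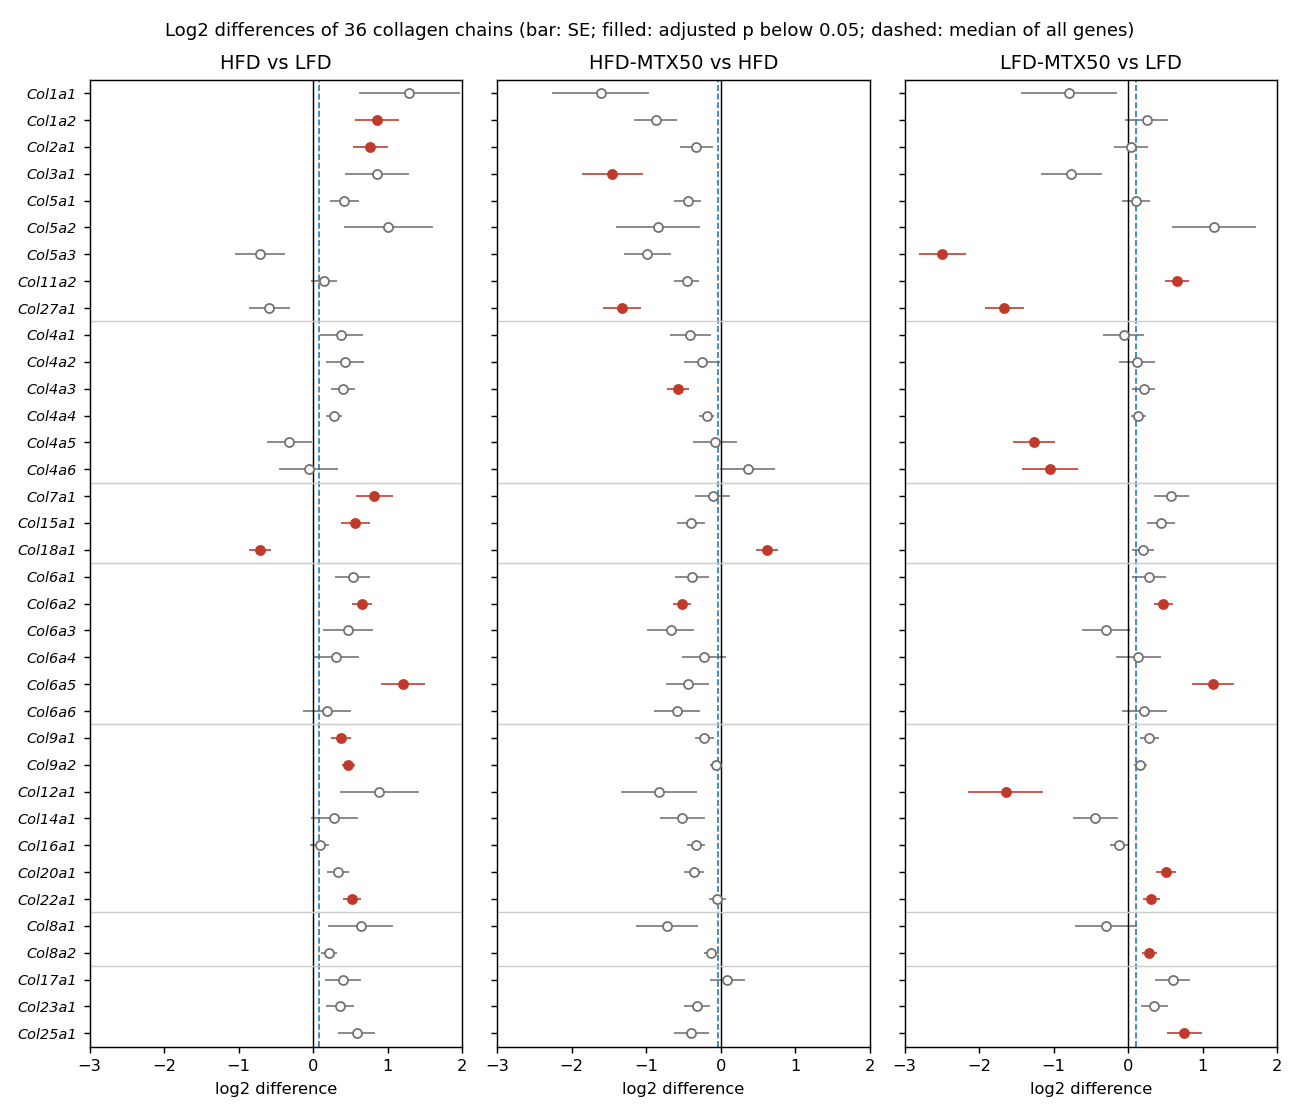
Log2 differences (points) with SE (bars) for the 36 tested chains, ordered by class, in 3 comparisons, with filled points at an adjusted p below 0.05 and the dashed line at the median of all genes. The points of HFD-MTX50 vs HFD lie below 0 for 33 chains and those of HFD vs LFD above 0 for 31 with the 75th percentile scaling, while normexp puts 29 chains above 0 in HFD-MTX50 vs HFD.

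The fitted methotrexate effect differed between the diets for 11 of the 36 chains, or 30.6% against 26.8% of all genes. The difference is the effect on the high fat diet minus that on the low fat diet, and of all genes 8.66% were called above 0 and 18.1% below 0. Since this contrast takes in LFD-MTX50 against LFD, slide and group cannot be told apart in it. The difference was above 0 for Col4a5 and Col5a3, whose fitted falls were smaller on the high fat diet (-0.08 against -1.26 and -0.98 against -2.49). It was below 0 for Col1a2, Col4a3, Col6a2, Col6a5, Col8a2, Col11a2, Col15a1, Col20a1 and Col25a1. Col6a2 gave -0.99 ± 0.18 (adjusted p = 0.00481), Col11a2 the value above, and Col20a1 -0.87 ± 0.19 (adjusted p = 0.00774), and these 3 passed with slide as a random block. For Col20a1, however, the second probe gave 0.42 (adjusted p = 0.396) and the mean over probes -0.22 (adjusted p = 0.462). Quantile normalization left 5 of the 11, Col4a5, Col5a3, Col6a2, Col11a2 and Col20a1. Of all genes, 16.7% were called with quantile normalization and 6.37% with slide as a random block.

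Collagen is made and removed by enzymes that were read as lists, whose counts stand beside the shares of all genes given above: 18% higher and 10.4% lower in HFD, 4.83% and 6.13% in HFD-MTX50 relative to HFD, and 17.6% and 10.5% in LFD-MTX50. Of 30 genes for folding, modifying and crosslinking collagen, all tested, 9 were higher and 2 lower in HFD than in LFD, with a median of 0.25. Plod2, a lysyl hydroxylase that prepares crosslinks, rose by 0.96 (adjusted p = 0.00252), Adamts14, which trims procollagen, by 0.73 (adjusted p = 0.00593), and the prolyl hydroxylase P3h1 changed by -0.84 (adjusted p = 0.00658). Between HFD-MTX50 and HFD 2 were higher and 5 lower, with a median of -0.20: Ppib, a folding catalyst, rose by 0.63 (adjusted p = 0.00819), and the lysyl oxidase relative Loxl1 changed by -0.61 (adjusted p = 0.00819), Colgalt1 by -0.35 (adjusted p = 0.0296) and P4ha3 by -0.43 (adjusted p = 0.0347). Between LFD-MTX50 and LFD 5 were higher and 4 lower, with a median of 0.09. There Bmp1, the procollagen C-proteinase, changed by -1.33 (adjusted p = 0.00666) and Loxl2 by 0.69 (adjusted p = 0.00899).

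Of 11 genes for collagen turnover, 4 were higher and 1 lower in HFD, 1 higher and 1 lower in HFD-MTX50 relative to HFD, and 4 higher and 0 lower in LFD-MTX50. Mmp14, a membrane collagenase, changed by -0.69 in HFD (adjusted p = 0.00447), by 0.58 in HFD-MTX50 relative to HFD (adjusted p = 0.0155) and by 0.54 in LFD-MTX50 (adjusted p = 0.00819). Mrc2, a receptor that takes up collagen fragments, rose by 0.70 in HFD (adjusted p = 0.00574) and by 0.57 in LFD-MTX50 (adjusted p = 0.0103). Mmp8, the neutrophil collagenase, rose by 2.22 in LFD-MTX50 (adjusted p = 0.0135) but lay well above background on 7 arrays only. Of 12 collagen partners and receptors (Itga10 is not among the named probes), 3, 0 and 4 were higher and 1, 2 and 0 lower in the same order of comparisons. Of 15 laminins, nidogens and basement membrane proteoglycans, 4, 1 and 3 were higher and 1, 1 and 1 lower. These counts, too, stand beside the shares of all genes given above.

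Markers of cells that make collagen were read beside the chains, as the sum of their linear signals relative to the 75th percentile. Such a sum is weighted towards its brightest probes, so it can follow a few markers rather than the whole list, and sums of different lists are not set against each other. Counts from all marker lists stand beside the shares of all genes called. These were 18% higher and 10.4% lower in HFD, 4.83% and 6.13% in HFD-MTX50 relative to HFD, and 17.6% and 10.5% in LFD-MTX50. The 14 stellate cell and myofibroblast markers, of which Des was above background on 16 arrays and the other 13 on all 18, summed to 17.4 to 20.4 in LFD, 20.7 to 27.9 in LFD-MTX50, 18.9 to 24.0 in HFD and 19.7 to 24.5 in HFD-MTX50. Their counts higher and lower were 2 and 0 in HFD (Gfap and Acta2), 0 and 1 in HFD-MTX50 relative to HFD, and 6 and 0 in LFD-MTX50. The 8 markers of portal fibroblasts and mesothelium summed to 2.87 to 3.48, 2.24 to 3.26, 3.37 to 4.22 and 2.40 to 5.85 in the same order of groups, with 1 marker higher in HFD and 1 lower in LFD-MTX50. The part of these cells in the collagen results was not tested.

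Markers of other cells also moved. The adipocyte list summed to 0.362 to 0.526 in LFD, 0.482 to 0.841 in LFD-MTX50, 4.16 to 6.68 in HFD and 0.627 to 1.59 in HFD-MTX50, with Cfd 5.99 higher in HFD than in LFD (adjusted p = 0.00252). The median log2 difference over the list was 0.64 in HFD and 0.66 in LFD-MTX50, each relative to LFD. The rise of its sum in HFD was thus not shared evenly by the list. Of its 5 markers 3 were higher in HFD, 1 was higher and 1 lower in HFD-MTX50 relative to HFD, and 3 were higher in LFD-MTX50. The 6 macrophage markers summed to 25.2 to 38.1, 17.6 to 23.8, 17 to 34.3 and 32.4 to 43.0, with 1 lower in HFD and 1 lower in LFD-MTX50. The 8 endothelial markers had sums that overlapped between groups, from 18.4 to 37.2 in all. Of these markers 1 was lower in HFD-MTX50 relative to HFD, and 0 were called in HFD or LFD-MTX50 relative to LFD. Vascular smooth muscle had 1 of 3 markers higher in HFD and 2 in LFD-MTX50. Of 5 cholangiocyte markers 1 was higher and 1 lower in HFD, 1 was lower in HFD-MTX50 relative to HFD and 2 were higher in LFD-MTX50, and of 5 exocrine pancreas markers 1 was higher in HFD. Of the 4 cartilage markers, Matn1 was above background on 0 arrays and 3 were tested. Of these, 2 were higher in LFD-MTX50, Comp among them. Comp was also higher in HFD and lower in HFD-MTX50 relative to HFD, and Sox9 was lower in HFD. None of these lists holds a collagen chain, and their part in the collagen results was not tested.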

How the data were processed

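Total liver RNA was labelled with Cy3 and hybridised to Agilent mouse arrays, 1 array per mouse, and the deposited values are spot intensities from Feature Extraction 10.7.3.1, from which the authors' software had subtracted background and removed trends within each array. From the log2 of that signal, the 75th percentile of the array's non-control spots was subtracted. Outlier spots were left out and spots of a probe averaged. Probes well above background on at least 4 of 18 arrays were kept (35735 of 39429), of which 25688 got a gene symbol by matching accessions to RefSeq (GRCm38.p6). A gene was read on its brightest kept probe. All 4 groups entered a single limma 3.58.1 fit in R 4.3.3 (2.77 prior degrees of freedom), and p-values of kept probes were adjusted together by Benjamini-Hochberg. The scripts were tested on simulated data.

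Values in every mouse are given for fibrillar and basement membrane chains detected above background throughout 1 or more groups and for any other chain called in at least 1 contrast, and at most 5 genes per comparison are named from the making and turnover lists. Members and lists were chosen with earlier results of these data known. Alternatives were quantile normalization, scaling to the median, normexp with an offset of 50, the deposited table of the series, other probe filters, the mean over probes, a fit of 2 groups, the methods' t-test, slide and replicate blocks, and leaving out each mouse. Normexp was run on the median spot intensity deposited by the authors. Protein sequences were not used here. The number of arrays limits the precision.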

Additional observations from a re-analysis of the deposited data

Results flagged for a closer look

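Samples far from the rest of their group were sought in 104 groups of 4 or 5 mice, and 4 were found, while chance gives about 1 in 20. These were the Col2a1 level of HFD-MTX50 mouse 2 (-3.37, above its group), Col5a3 in LFD mouse 2 (1.41, below its group), Col18a1 in LFD mouse 3 (5.02, below its group by under 0.1) and Col25a1 in LFD-MTX50 mouse 3 (-2.77, above its group). For 11 chains the methotrexate effect differed between diets in the limma interaction term, given as the effect on the high fat diet minus that on the low fat diet. It was above 0 for Col5a3 (1.51) and Col4a5 (1.19), which fell less on the high fat diet. It was below 0 for Col25a1 (-1.15), Col1a2 (-1.12), Col11a2 (-1.12), Col6a2 (-0.99), Col20a1 (-0.87), Col15a1 (-0.85), Col4a3 (-0.78) and Col8a2 (-0.41). The fitted value for Col6a5 (-1.59) is no measured size, since that chain was well above background on 0 of 4 LFD and 1 of 5 LFD-MTX50 arrays.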

How the results depend on the processing

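Called chains numbered 10 for the diet, 5 for methotrexate on the high fat diet, 12 for methotrexate on the low fat diet and 11 for the difference of those effects, and the counts below keep this order. Of all genes, 28.3, 11.0, 28.1 and 26.8% were called, and percentages below are shares of all genes called under the setting named. Quantile normalization gave 6, 5, 6 and 5 (19.2, 11.7, 18.8 and 16.7%), and median scaling 7, 5, 10 and 10 (27.8, 11.5, 25.4 and 25%). Slide as a random block gave 1, 5, 2 and 3 (1.94, 9.48, 1.73 and 6.37%). A required 2-fold change gave 1, 2, 6 and 6 on fitted values, for which the share of all genes was not counted. Col6a5 is in these counts for the diet, for the low fat diet and for the difference. With its LFD values raised to the dimmest signal well above background, the first 2 of those became 0 and 5. Normexp gave 0, 0, 1 and 0 (0.0102, 0, 1.62 and 0%), with 6, 2, 8 and 3 chains at an unadjusted p below 0.05. Its fitted background mean ran from -2230 to 13.0 intensity units and lay below 0 on 11 of 18 arrays, and it moved the median of all probes to 0.54, 0.51, 0.66 and -0.18 from 0.12, -0.06, 0.16 and -0.20. Normexp reversed Col4a3 (0.99), Col6a2 (0.53) and Col27a1 (0.50) in HFD-MTX50 vs HFD and Col12a1 (1.31) in LFD-MTX50 vs LFD. The mean over probes reversed Col15a1 in HFD vs LFD (-0.26) and in the difference of effects (0.0447). A fit of 2 groups and the methods' t-test after adjustment gave 0 chains in HFD-MTX50 vs HFD, where both called 0% of all genes. There 11 and 9 chains had an unadjusted p below 0.05. At the methods' own cut-off without adjustment the t-test gave 11, 4 and 14 chains in the first 3 comparisons, and the share of all genes was not counted. Leaving out 1 mouse gave 5 to 16, 1 to 9, 7 to 14 and 5 to 17 chains. Without HFD mouse 1 the counts were 16, 9, 12 and 17 (31.5, 15.5, 28.3 and 31.4%). Without HFD mouse 3 they were 6, 1, 12 and 5 (11.5, 1.53, 27.3 and 15.3%). Without HFD mouse 4 they were 6, 1, 9 and 7 (13, 1.44, 25.9 and 15.9%). The count for the diet was 5 without LFD mouse 2 (16.9%) or HFD mouse 2 (23%) and 6 without LFD mouse 4 (18.3%). That for methotrexate on the high fat diet was 3 without HFD mouse 2 (5.57%) or HFD-MTX50 mouse 5 (5.61%). That on the low fat diet was 7 without LFD mouse 2 (16.3%), LFD mouse 3 (18.3%) or LFD-MTX50 mouse 3 (18.4%). That for the difference was 7 without LFD mouse 2 (19%) or LFD-MTX50 mouse 3 (19.6%). Replicate numbers did not pair the mice (25 same-numbered pairs, r from -0.31 to 0.25, 6 above 0.1), and the replicate block gave 9, 3, 11 and 9 (27.1, 5.17, 27.6 and 25.8%). Of 38 called results, the deposited table kept 34 and keeping outlier spots kept 38. The cause of these changes was not tested beyond the normexp fit.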
